A study of Mus musculus with 8 samples.

Results

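The genes described here handle iron in the liver or bind zinc and copper: the hepcidin genes Hamp and Hamp2, the hepcidin inducer Bmp6, the iron exporter Slc40a1, the transferrin receptor Tfrc, transferrin (Trf), the ferritin chains Fth1 and Ftl1, and the metallothioneins Mt1 and Mt2. They were chosen by name, and all 10 had a detected probe, among 21864 genes with one, and held 12 of the 41174 non-control probes of the array between them. In the files 9 of the 10 carry their own symbol, and the Hamp probe is named Hamp1 there and was matched by its accession.

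Hepatic RNA was measured on 8 one-color Agilent arrays, with 1 mouse per array. The animals were male wild-type mice, of strain C57BL/6 in the labels and C57BL/6J in the study's methods, aged 14 to 17 weeks when the experiment began. Of the livers, 4 came from mice administered standard chow (STD diet) and 4 from mice administered the atherogenic (ATH) diet for 4 weeks. The ATH diet is high in fat and cholesterol, contains cholic acid and is used as a model of fatty liver with inflammation. By the study's methods the diets came from different makers. The comparison asks how the diet shifts hepatic mRNA. No transgene, knockout or drug was involved in these groups. All arrays of a diet lay on a slide of their own, so the diet and the slide cannot be told apart.

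Hepcidin is a peptide hormone made by hepatocytes. It binds ferroportin, the product of Slc40a1, and causes its loss from the surface of macrophages, enterocytes and hepatocytes, which lowers iron release into plasma. Its transcription is raised by BMP6 from sinusoidal endothelium through SMAD signaling, and by interleukin-6 through STAT3. Transferrin carries iron in plasma and enters cells through its receptor, and ferritin stores iron as a shell of heavy and light chains. Iron also sets the translation and stability of several of these mRNAs through iron regulatory proteins, so an mRNA level need not follow the protein. Metallothioneins are small cysteine-rich proteins that bind zinc and copper, and their genes are induced by metals through the factor MTF1, by glucocorticoids and by inflammation.

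The sequences below are those on which the hepcidin and metallothionein measurements rest. The Hamp probe (chr7:27882251-27882310, mm7, the older assembly of the array design) and the Hamp2 probe (chr7:27862281-27862340, mm7) were alike at 42 of 59 aligned bases. The stretch of 30 bases where they differ most is shown 5′ to 3′, with the 10 differing bases in capitals.
Hamp probe: CAGtgtggtatctgttgCAaaACatagCCT
Hamp2 probe: TCCtgtggtatctgttgTGaaGAatagAGA
The probes are therefore similar enough that some binding of one transcript to the other probe is possible, which was not tested.

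The 250 bases before the annotated start of each hepcidin gene (RefSeq, GRCm38.p6, minus strand, chr7:30944030-30944279 for Hamp and chr7:30924182-30924431 for Hamp2) are shown because the genes are near-copies with different spread among mice. Capitals mark GGCGCC, the letters of a BMP-responsive element, and TTCTTGGAA, those of a STAT3 element, searched on both strands. The motifs do not overlap each other.
Hamp: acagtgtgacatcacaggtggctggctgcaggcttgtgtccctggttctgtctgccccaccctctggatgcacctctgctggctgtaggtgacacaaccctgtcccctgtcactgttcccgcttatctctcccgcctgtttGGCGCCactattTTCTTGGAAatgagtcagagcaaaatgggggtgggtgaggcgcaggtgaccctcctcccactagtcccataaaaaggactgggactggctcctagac
Hamp2: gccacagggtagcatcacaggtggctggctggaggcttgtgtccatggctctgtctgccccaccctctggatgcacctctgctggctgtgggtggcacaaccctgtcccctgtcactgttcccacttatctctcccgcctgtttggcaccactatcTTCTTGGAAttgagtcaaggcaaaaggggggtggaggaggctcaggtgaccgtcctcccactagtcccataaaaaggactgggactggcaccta
The windows were identical in 227 of 253 aligned columns. The STAT3 letters stand in both, and in 0.365% of all 32851 promoter windows of this length. The BMP letters stand in the Hamp window and in 9.59% of all windows, and the Hamp2 bases aligned with them are identical in 5 of 6 positions.

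Mt1 and Mt2 are neighbors on chromosome 8. Their windows (RefSeq, GRCm38.p6, plus strand, chr8:94178839-94179088 for Mt1 and chr8:94172368-94172617 for Mt2) are shown because the genes varied together, with the core of the metal response element, TGCACNC or TGCGCNC on either strand, in capitals.
Mt1: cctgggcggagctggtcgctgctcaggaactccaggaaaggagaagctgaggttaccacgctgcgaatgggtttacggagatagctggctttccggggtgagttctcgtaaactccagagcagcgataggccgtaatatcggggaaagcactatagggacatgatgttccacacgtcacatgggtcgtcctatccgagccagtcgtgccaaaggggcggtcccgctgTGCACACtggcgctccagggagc
Mt2: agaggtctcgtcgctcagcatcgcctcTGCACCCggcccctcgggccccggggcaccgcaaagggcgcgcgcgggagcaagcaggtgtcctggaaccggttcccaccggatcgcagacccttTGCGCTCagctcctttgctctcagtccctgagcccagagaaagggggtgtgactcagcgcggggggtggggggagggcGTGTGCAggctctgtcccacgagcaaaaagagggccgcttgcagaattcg
The core stood 1 time in the Mt1 window and 3 times in the Mt2 window. Bases after the annotated start were not searched, so these are not counts for the whole promoters. At least 1 core was held by 21.4% of all windows and 3 or more by 1.26%.

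Values below are log2 processed signals minus the array's 75th percentile, so a difference of 1 is a doubling relative to the rest of the array, and they are not comparable between probes. Fold changes are ATH minus STD on this scale, with limma adjusted p-values over all 31056 detected probes and a call at 5%. Of the 10 genes, 1 was called, Ftl1, against 8% of all detected probes. At 1% in limma 0 passed, against 0.528% of all detected probes. The study used a 1% false discovery rate too, but with an analysis of variance that allows unequal variances. By limma, 4 of the 10 (Slc40a1, Fth1, Ftl1 and Mt2) had an unadjusted p under 0.05, against 28.4% of detected probes. By fitted value 7 of the 10 genes lay below the STD mean, against 67.1% of detected probes, and their median was -0.14 beside -0.15 over all of these. The diets did not overlap for 2 genes, Fth1 and Ftl1, against 19.9% of detected probes. All 12 probes were well above background on all 8 arrays and 0 were saturated.

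**Figure D1:**
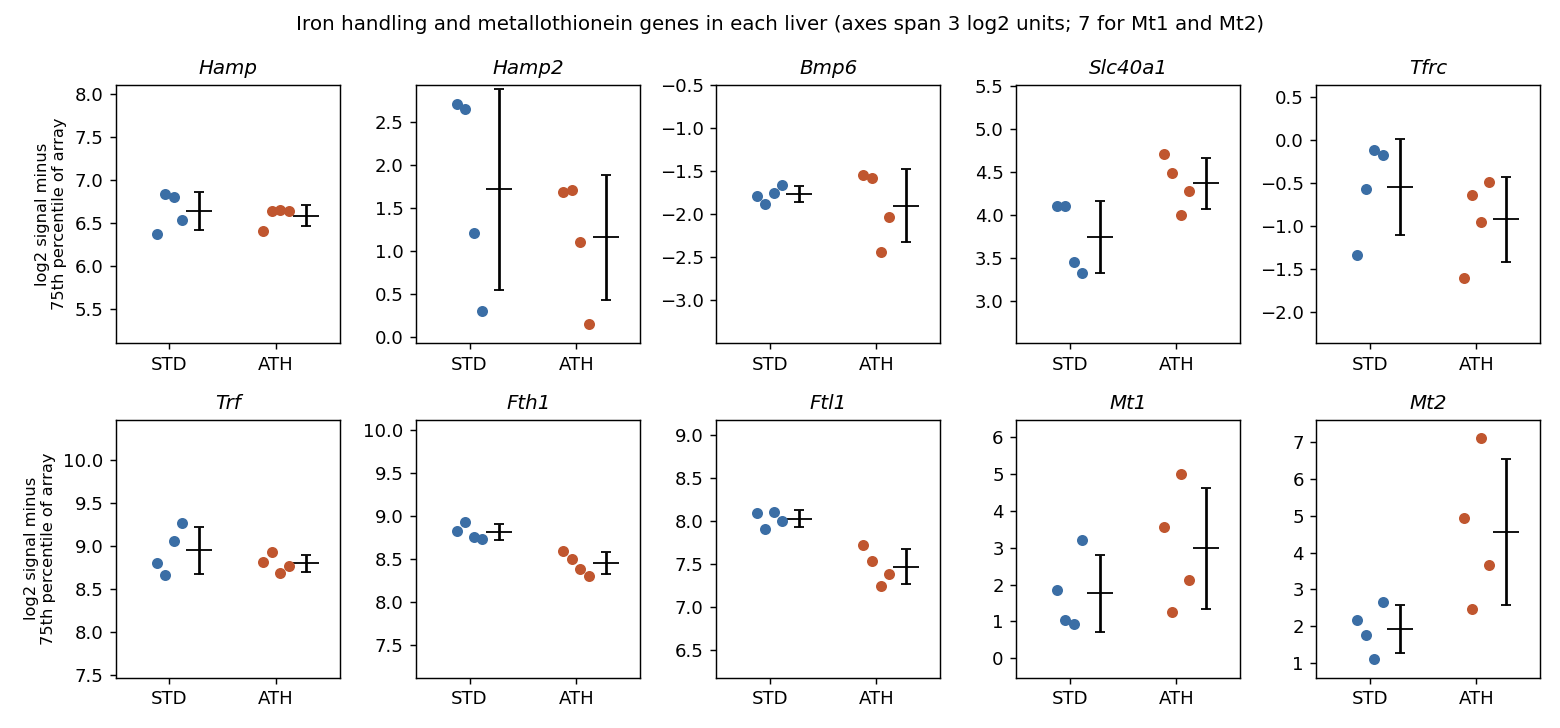
Log2 signal minus the array's 75th percentile (vertical axes) of the main probe of each gene, with a point per liver in STD (blue) and ATH (orange), and a black bar for the mean ± SD of 4 arrays. All ATH points lie below all STD points for Fth1 and Ftl1, while Mt1 and Mt2 have the widest spread on the ATH diet.

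The scale matters for these genes. The 75th percentile itself was 0.45 (log2) higher on the ATH arrays, while the spike-in transcripts, RNA added in known amounts, were 0.14 higher. The median of all detected probes was therefore -0.15 after percentile scaling and -0.08 after median scaling. Quantile normalization put it at -0.05, the spike-in scale at 0.16, and the unscaled signals at 0.30. The 200 brightest detected probes, had a median of -0.40 with percentile scaling and 0.04 with no scaling. Several of the differences below change sign with the scale.

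Hepcidin (Hamp) mRNA was nearly level between diets on the percentile scale. The STD livers gave 6.37, 6.84, 6.80 and 6.53 and the ATH livers 6.41, 6.64, 6.65 and 6.64. The ATH values lay within the STD range, and 3 of the 4 ATH livers were within a few hundredths of each other. The difference was -0.05 ± 0.14 (SE, n = 4 per diet), with a 95% interval from -0.38 to 0.28 (limma, adjusted p = 0.84). The sign turned under other scalings, with 0.02 for the median, 0.27 for quantile, 0.26 for spike-in and 0.40 with none, all uncalled.

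Hamp2, a near-copy of Hamp whose peptide has little known effect on iron, varied far more among mice. Its STD values were 2.71, 2.64, 1.20 and 0.30 and its ATH values 1.68, 1.70, 1.09 and 0.15. The spread within each diet (SD 1.17 and 0.73) exceeded the difference of -0.56 ± 0.57 (SE, limma, adjusted p = 0.55), and the diets overlapped. Replicate 4 was the lowest and replicates 1 and 2 the highest on both diets, and same-numbered arrays sat at one slide position.

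Bmp6, the endothelial ligand that raises hepcidin, had a pair of probes. The main probe gave -1.79, -1.88, -1.76 and -1.66 on STD and -1.55, -1.58, -2.45 and -2.04 on ATH. Of the ATH livers, 2 lay above and 2 below the whole STD range. The difference was -0.13 ± 0.20 (SE, limma, adjusted p = 0.70), and it was 0.18 with spike-in scaling and 0.31 with none. The other, dimmer probe gave -0.27 ± 0.26 (SE, limma, adjusted p = 0.52), and 0.038 and 0.18 on the spike-in and unscaled signals.

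Ferroportin (Slc40a1), the only known cellular iron exporter, was higher by fitted value in ATH livers but missed the threshold. It measured 4.10, 4.11, 3.46 and 3.32 on STD and 4.71, 4.49, 4.00 and 4.28 on ATH. Of the 4 ATH livers 3 exceeded every STD liver, and the remaining one fell inside the STD range. The difference was 0.62 ± 0.23 (SE), a ratio of 1.54, with a 95% interval from 0.09 to 1.15 (limma, adjusted p = 0.12). It passed with spike-in scaling (0.93, limma adjusted p = 0.040, a setting that calls 10.1% of probes) and with no scaling (1.07, limma adjusted p = 0.019, 23.7% of probes).

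Ferroportin is abundant in Kupffer cells, the resident macrophages of liver. Of 15 macrophage markers, all 15 were higher by fitted value and 7 were called. Their summed level ran from 6.86 to 7.14 (log2) on STD and from 7.80 to 9.81 on ATH. All 15 were well above background on all 8 arrays, and differences of Kupffer cell markers ran from 0.32 for Clec4f (limma, adjusted p = 0.29), through 0.65 for Vsig4 and 0.94 for Timd4, to 1.69 for Cd5l and 3.43 for Marco, the last pair called. More macrophages and more RNA per macrophage cannot be told apart in whole liver, and the part of these cells in the Slc40a1 difference was not tested.

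The transferrin receptor (Tfrc), which brings transferrin-bound iron into cells, was measured by 10 spots per array. Its STD values were -1.34, -0.58, -0.12 and -0.17 and its ATH values -1.61, -0.64, -0.96 and -0.50. The diets overlapped, and replicate 1 was the lowest on both. The difference was -0.37 ± 0.32 (SE, limma, adjusted p = 0.47), and 0.07 with no scaling. Spots of an array differed by an SD of only 0.060 to 0.095, against 0.56 and 0.49 between mice. Of 12 erythroid markers, which stand for a cell type rich in this receptor, 6 had a detected probe. Of these 4 were lower by fitted value and 1 was called, Alas2 (-0.90, limma, adjusted p = 0.047), and their summed level ran from 6.57 to 6.91 on STD and 5.70 to 6.92 on ATH. Their part in the Tfrc values was not tested.

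Transferrin (Trf), secreted by hepatocytes, gave 8.80, 8.67, 9.06 and 9.28 on STD and 8.81, 8.94, 8.69 and 8.77 on ATH. All 4 ATH livers fell within the STD range. The difference was -0.15 ± 0.15 (SE), with a 95% interval from -0.50 to 0.20 (limma, adjusted p = 0.55). Its sign turned to 0.27 under quantile normalization, to 0.16 on the spike-in scale and to 0.30 unscaled, so no direction can be given.

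The ferritin light chain (Ftl1), which aids the mineral core of ferritin, was the member called. It measured 8.10, 7.91, 8.11 and 8.01 on STD and 7.72, 7.54, 7.25 and 7.39 on ATH. Every ATH liver was below every STD liver. It fell by 0.56 ± 0.14 (SE; log2 scale), a ratio of STD over ATH of 1.47 (limma, adjusted p = 0.043; exact permutation test, two-sided, p = 0.0286, the smallest that 4 against 4 allows). The median of the 200 brightest probes on the same scale was -0.40. The limma call was lost with median scaling (-0.48, adjusted p = 0.069, a setting that calls 6.02% of probes) and with quantile normalization (-0.20, adjusted p = 0.33, 6.19% of probes). It was also lost in limma on the spike-in scale (-0.25, adjusted p = 0.22), unscaled (-0.11, adjusted p = 0.53) and with the slide position as a block (adjusted p = 0.066, 4.26% of probes). As deposited, before any scaling, the Ftl1 processed signals were 130844, 115580, 127716 and 115392 on STD and 129737, 102834, 104485 and 117951 on ATH, which overlap. Leaving out each array in turn, the limma call held without ATH replicate 1 or 2 and was lost without any of the other 6 arrays (adjusted p up to 0.11).

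The ferritin heavy chain (Fth1), which oxidizes iron for storage, gave 8.83, 8.93, 8.75 and 8.73 on STD and 8.60, 8.50, 8.39 and 8.30 on ATH. Here too no ATH value reached the STD range. The difference of -0.36 ± 0.12 (SE) missed the threshold (limma, adjusted p = 0.090; exact permutation test, two-sided, p = 0.0286). On the spike-in scale it was -0.05, and its sign turned under quantile normalization (0.07) and unscaled (0.08). Ftl2, listed on the array as a relative of Ftl1 and not one of the 10 genes, gave -0.48 ± 0.14 (SE, limma, adjusted p = 0.068), and how much of its signal comes from Ftl1 transcripts is uncertain.

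The hepatocyte markers, of which 14 of 15 had a detected probe, gave differences of about the size seen for ferritin. Of the 14, 13 were lower by fitted value and 3 were called, with a median of -0.39. With no scaling their median was 0.05. Their summed level ran from 12.29 to 12.33 on STD and 11.69 to 12.10 on ATH, and its part in the ferritin values was not tested.

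**Figure D2:**
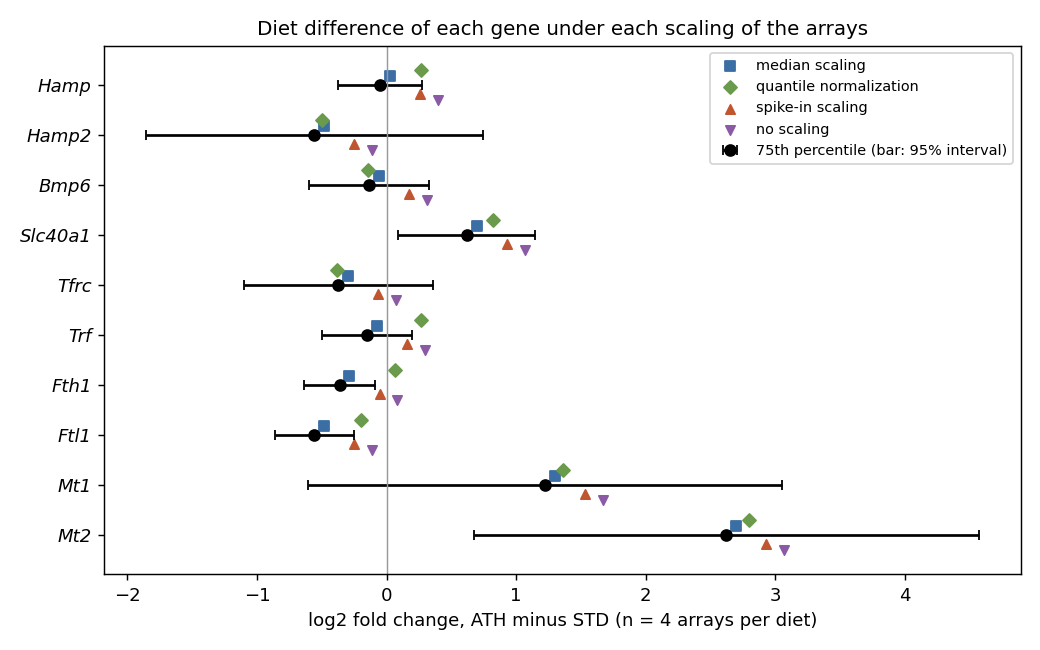
Log2 fold change (ATH minus STD, horizontal axis) of the main probe of each gene with percentile scaling (black, with the 95% interval) and under 4 other scalings (colored marks). Hamp, Bmp6, Tfrc, Trf and Fth1 cross 0 under at least 1 of them, while Slc40a1, Mt1 and Mt2 stay above 0 and Ftl1 and Hamp2 below it.

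Mt2 had the largest fold change of the 10 genes, and the widest spread on ATH (SD 1.98). On STD its SD was 0.65, below those of Hamp2 (1.17) and Mt1 (1.05). It measured 2.17, 1.76, 1.11 and 2.66 on STD and 4.95, 2.47, 7.10 and 3.67 on ATH. Of the 4 ATH livers 3 exceeded all STD livers, and the remaining one lay within the STD range. The difference was 2.62 ± 0.86 (SE), a 6.16-fold ratio with a 95% interval from 0.67 to 4.57 on the log2 scale, and it missed the threshold (limma, adjusted p = 0.089; exact permutation test, two-sided, p = 0.0571). In limma it passed with normexp background correction (adjusted p = 0.045, a setting that calls 20.6% of probes), with no scaling (3.07, adjusted p = 0.042), with array weights (adjusted p = 0.044, 12.5% of probes) and without ATH replicate 2, the liver nearest the STD range (3.31, limma adjusted p = 0.027). Without ATH replicate 3, the highest liver, it was 1.77.

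Mt1 was read by 10 spots of its main probe, which lies in the coding part of the message (chr8:92769155-92769214, mm7), and by another probe that lies 107 bases upstream of it on the same assembly. The main probe and the first 30 bases of the other are shown because the probes disagreed.
Mt1 main probe: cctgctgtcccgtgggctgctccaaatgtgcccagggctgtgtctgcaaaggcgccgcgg
Mt1 other probe: aactggctctgagaaatgtcctttgcttcc
Where the other probe falls among the exons and introns was not determined here, since no genome of this build was used.

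On the main probe Mt1 measured 1.86, 1.03, 0.94 and 3.20 on STD and 3.56, 1.25, 5.0 and 2.12 on ATH. Of the ATH livers, 2 exceeded the STD range and 2 lay within it. The difference was 1.22 ± 0.81 (SE, limma, adjusted p = 0.34), and 0.55 without ATH replicate 3. On the other probe the values were -0.82, -2.43, -2.25 and -0.34 on STD and -1.30, -2.88, -0.06 and -2.37 on ATH, with a difference of -0.19 ± 0.67 (SE, limma, adjusted p = 0.87). On the percentile scale the probes thus gave opposite signs, neither called. On the spike-in and unscaled signals the other probe turned to 0.12 and 0.25, the sign of the main probe. Both put ATH replicate 3 highest and ATH replicate 2 lowest on that diet. Spots of the main probe differed within an array by an SD of 0.024 to 0.045, against 1.05 and 1.65 between mice.

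The metallothioneins ranked the mice alike. On STD the order from high to low was replicates 4, 1, 2 and 3 for both the main Mt1 probe and Mt2. On ATH it was 3, 1, 4 and 2 for both. The other Mt1 probe gave this order on ATH, but 4, 1, 3 and 2 on STD. The Mt2 value minus the Mt1 value of the same array, which no scaling by a constant per array can change, was 0.31, 0.73, 0.17 and -0.55 on STD and 1.39, 1.22, 2.10 and 1.55 on ATH. The diets did not overlap in it. Mt2 was higher relative to Mt1 by 1.40 on the log2 scale, a 2.64-fold ratio (0.16 ± 0.53 on STD and 1.56 ± 0.38 on ATH, SD, n = 4; exact permutation test, two-sided, p = 0.0286, adjusted p = 0.0857 over 6 such pairs). Against the other Mt1 probe the difference was 2.81, with the same p-values. The comparison was chosen after the values were seen, and leaving out each array in turn gave 1.16 to 1.59.

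**Figure D3:**
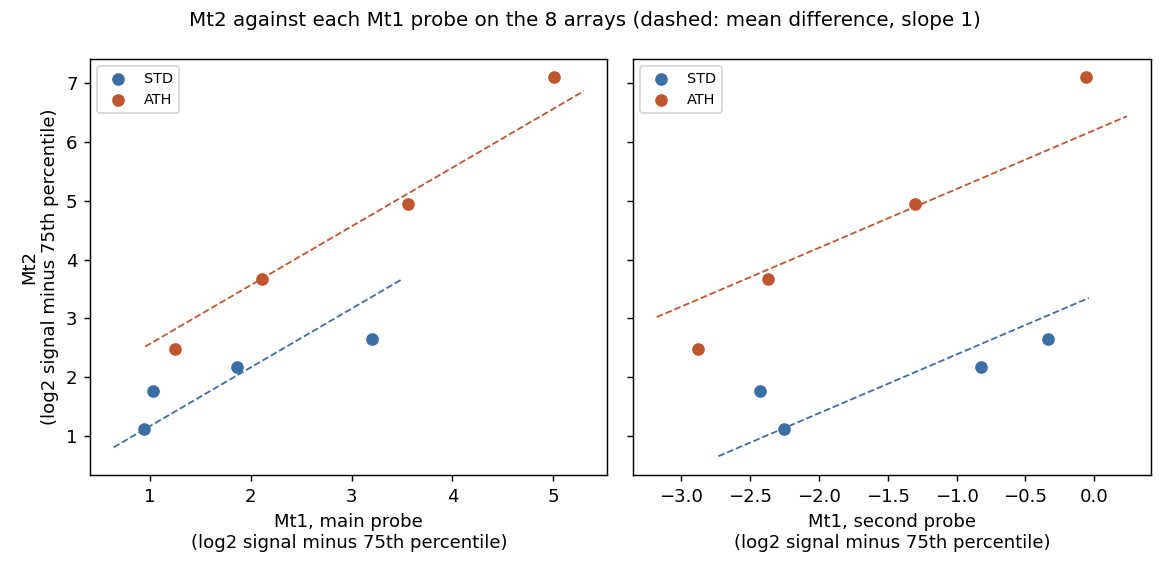
Mt2 (vertical axis) against the main Mt1 probe (left) and the other Mt1 probe (right), all as log2 signal minus the array's 75th percentile, with a point per liver. The dashed lines have slope 1 and pass at each diet's mean difference. The ATH line (orange) lies 1.40 above the STD line (blue) on the left and 2.81 above it on the right. The gap between points varies with the Mt1 level. On the left, at Mt1 of 1.03 (STD replicate 2) and 1.25 (ATH replicate 2), Mt2 was 1.76 and 2.47. At 3.20 (STD replicate 4) and 3.56 (ATH replicate 1) it was 2.66 and 4.95.

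The remaining pairs tested the same way overlapped between diets. Ftl1 minus Fth1 differed by -0.19 (exact permutation p = 0.114), Hamp2 minus Hamp by -0.51 (p = 0.514), Slc40a1 minus Hamp by 0.67 (p = 0.114) and Tfrc minus Ftl1 by 0.18 (p = 0.486), each two-sided over the 70 assignments of 8 arrays. After adjustment over the 6 pairs these were 0.171, 0.514, 0.171 and 0.514. Between same-numbered arrays, which share a slide position, Slc40a1 minus Hamp differed by 0.57, 0.57, 0.70 and 0.84, Tfrc minus Ftl1 by 0.11, 0.31, 0.025 and 0.30, and Mt2 minus Mt1 by 1.08, 0.49, 1.93 and 2.10. All of these were positive, and each gave p = 0.125 in a two-sided exact sign-flip test, the smallest that 4 pairs allow. Signs were mixed for Ftl1 minus Fth1 (-0.15, 0.064, -0.50 and -0.20) and for Hamp2 minus Hamp (-1.065, -0.74, 0.047 and -0.26). For both, 1 of the 4 differences was positive (two-sided exact sign-flip test, p = 0.25 each).

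After the diet means were removed, the genes whose deviations across the 8 arrays were most like those of a member were listed as a description. For Mt1 these were Mt2 (Pearson 0.95), Leng9 (0.93) and Lpin2 (0.93), so its neighbor ranked first of 15656 genes. For Hamp they were Sox9 (0.94), Grb10 (0.93) and Prg2 (0.93). For Trf they were Npr1 (0.98), Agpat2 (0.98) and Ldhd (0.98). The arrays share slides and positions, and nothing is read from likeness about function.

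Of 103 other genes of iron and metal metabolism, in 6 lists, 101 had a detected probe. By limma 2 rose and 4 fell at 5%, beside 3.06% and 4.94% of all detected probes, and 0 passed 1%. An unadjusted limma p under 0.05 was held by 27, against 28.4% of detected probes. The median was -0.10, beside -0.15 over all detected probes. With no scaling 26 were called, all higher, and with quantile normalization 2, settings that call 23.7% and 6.19% of all detected probes. The diets did not overlap for 23 of the 101, against 19.9% of detected probes. Among 67 further detected probes of these genes, 4 were called, all lower: 1 of Ccs, 2 of Sod1 and 1 of Ireb2. Each of the 6 calls was lost when STD replicate 1, 2 or 3 was left out.

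The hepcidin regulators (26 detected) had 1 gene higher and 1 lower at 5%, with a median of 0.00. Tmprss6, the protease that restrains hepcidin by cutting hemojuvelin, fell from 5.98, 5.87, 6.00 and 6.14 on STD to 5.72, 5.48, 5.16 and 5.31 on ATH, by 0.58 ± 0.15 (SE, limma, adjusted p = 0.048). No ATH value reached the STD range, but with no scaling the difference was -0.13 and was not called, and with the slide position as a block the limma adjusted p was 0.074.

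Il6, the cytokine that induces hepcidin through STAT3, rose from -4.77, -5.06, -4.71 and -3.78 on STD to -3.43, -3.56, -3.30 and -3.08 on ATH. The diets did not overlap, with a difference of 1.24 ± 0.26 (SE, limma, adjusted p = 0.031). The limma call held on the spike-in and unscaled signals (adjusted p = 0.023 and 0.011) and with the block (adjusted p = 0.037), and was lost with normexp background correction (0.27, adjusted p = 0.10). The signal was low. Of its spots, 10 per array, 70% and 80% were well above background on STD replicates 2 and 1 and 100% on the other arrays. On the percentile scale Hamp, in the same livers, was within its STD range as given above. Unscaled, its processed signals were 39504, 55053, 51510 and 41489 on STD and 52199, 55188, 68851 and 70229 on ATH. The unscaled log2 difference of Hamp was 0.40 (limma, adjusted p = 0.10). A link between Il6 and Hamp was not tested.

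Among transport genes (21 detected, median 0.15), Steap1 rose and Slc46a1 fell. Steap1, a member of the STEAP family, gave -3.29, -3.17, -3.26 and -3.26 on STD and -2.34, -2.49, -1.75 and -2.75 on ATH. Its difference was 0.92 ± 0.20 (SE, limma, adjusted p = 0.035, 0.055 with the block). It was called under all 4 other scalings but not with normexp (0.31, limma, adjusted p = 0.10). Another, dimmer Steap1 probe gave 0.58 (limma, adjusted p = 0.16). Slc46a1, a folate and heme carrier, gave 3.90, 3.85, 3.86 and 4.13 on STD and 3.52, 3.48, 3.09 and 3.25 on ATH. The diets did not overlap and it fell by 0.60 ± 0.14 (SE, limma, adjusted p = 0.040), but it was -0.16 with no scaling and was not called there, nor with the block (limma adjusted p = 0.064).

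In the zinc and copper list (20 detected, median 0.07) 2 genes fell on their main probe. Sod1, the copper and zinc superoxide dismutase, was at -0.58 on its main probe (limma, adjusted p = 0.066), with the diets not overlapping, while its other 2 probes were called (both -0.51, limma, adjusted p = 0.039 and 0.049) and were -0.06 unscaled. Mt4, a metallothionein best known from stratified epithelium, gave -4.23, -4.74, -4.63 and -4.56 on STD and -5.12, -5.37, -5.27 and -5.82 on ATH, with a difference of -0.86 ± 0.18 (SE, limma, adjusted p = 0.032). It was well above background on 4 STD arrays and 2 ATH arrays, so the ATH level is partly a bound. The limma call was lost with quantile normalization (-0.61, adjusted p = 0.057), on the spike-in scale (-0.55, adjusted p = 0.088) and unscaled (-0.41, adjusted p = 0.11). Ccs, the copper chaperone of this enzyme, gave 7.18, 7.23, 7.08 and 7.18 on STD and 6.83, 6.80, 6.39 and 6.41 on ATH, and fell by 0.56 ± 0.14 (SE, limma, adjusted p = 0.048, 0.061 with the block). With no scaling it was -0.11 and was not called. Mtf1, the metal-sensing factor of the Mt1 and Mt2 promoters, gave 0.33 ± 0.16 (SE, limma, adjusted p = 0.205) on the percentile scale, and was called on the spike-in (0.63, limma, adjusted p = 0.038) and unscaled signals (0.77, limma, adjusted p = 0.016). Its other probe gave -0.04 (limma, adjusted p = 0.92).

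On its main probe no gene was called by limma at 5% among 10 iron storage and sensing genes, 12 heme genes or 14 mitochondrial iron genes. Over all detected probes 8% were called. An unadjusted limma p under 0.05 was held by 2, 5 and 4 of them in turn, against 28.4% of detected probes. In the storage list the widest differences were Aco1 (-0.43) and Ireb2 (-0.37), the iron regulatory proteins, on the lower side, and Fbxl5 (0.18), which directs the breakdown of Ireb2's product, and Ncoa4 (0.11), the ferritin autophagy receptor, on the higher side. Unscaled, Aco1 turned to 0.014 and Ireb2 to 0.077, while another Ireb2 probe was called on the percentile scale (-0.65, limma, adjusted p = 0.046). In the heme list they were Alas1 (-0.86) and Cpox (-0.67), enzymes of heme synthesis, against Hmox1 (1.29), which opens the heme ring, and Blvra (0.26), which reduces biliverdin. The Hmox1 values were 2.53, 1.28, 2.35 and 1.41 on STD and 3.49, 1.24, 4.01 and 3.99 on ATH, so 3 ATH livers exceeded every STD liver and ATH replicate 2 lay just below the lowest (limma, adjusted p = 0.20). All 14 mitochondrial genes were lower by fitted value, against 67.1% of detected probes, the widest being Fdxr (-0.50) and Fdx1 (-0.47). With no scaling only 2 of the 14 were lower, and the median of the list was 0.15.

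**Figure D4:**
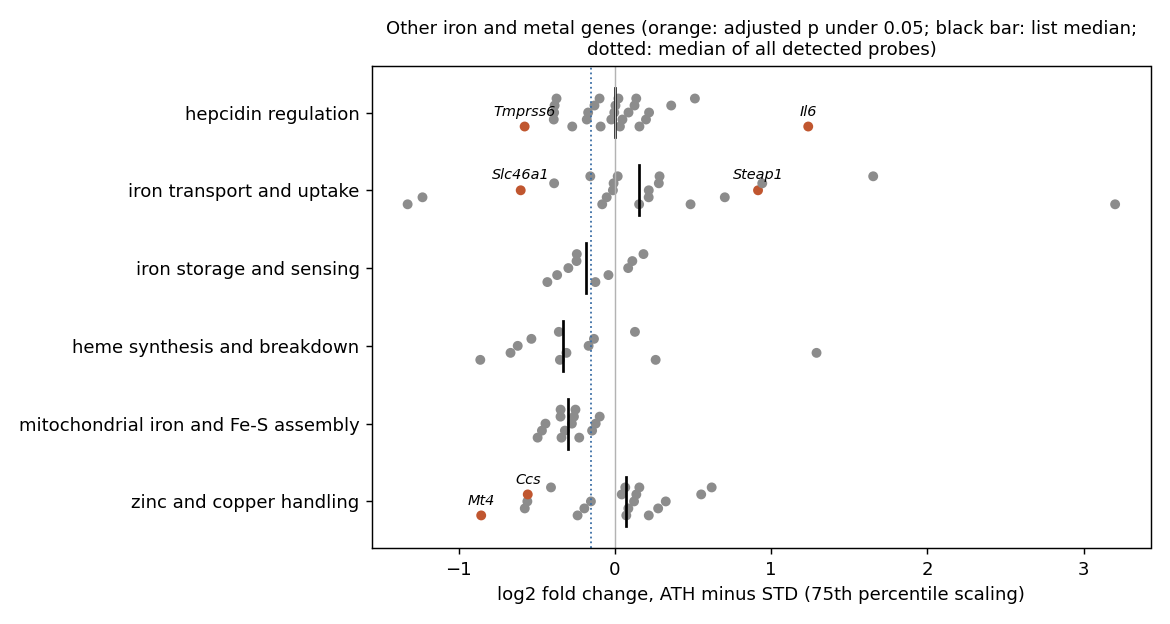
Log2 fold change (ATH minus STD, horizontal axis) of each detected gene of the 6 other lists, with the list median as a black bar, genes with a limma adjusted p under 0.05 in orange and the median of all detected probes (-0.15) as a dotted line. The list medians run from -0.33 for heme to 0.15 for transport, and the mitochondrial genes lie below 0 on this scale.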

How the data were processed

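Liver RNA from 4 STD and 4 ATH mice (Cy3-labeled) was hybridized to 1 Agilent array per mouse. The authors ran Agilent Feature Extraction version 9.5 (per the labels), and the deposited intensity values have background and spatial trend removed, with no scaling across arrays. The authors also deposited log2 values made in GeneSpring, which were used as an alternative. Their scaling and baseline are not stated. For each of the 10 genes they gave nearly the fold change of percentile scaling, such as -0.5561 against -0.5564 for Ftl1. They are therefore not an independent check of the scaling.

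Control spots and outlier-flagged spots were left out and spots of a probe averaged. The log2 signal minus the array's 75th percentile was used. A probe was detected when positive, significant and well above background on at least 3 of 4 arrays of either diet. The main probe of a gene was the detected one with the highest mean. The diets were compared by moderated two-sided tests in limma 3.58.1 (R 4.3.3), with Benjamini-Hochberg adjustment over all detected probes and a call at 5%. Exact permutation tests and tables used Python 3.11.15, numpy 2.4.6 and pandas 2.3.3, and plots matplotlib 3.10.9. On simulated data for this comparison, with 200 of 31042 probes changed by 2, limma recovered 87% of them, with 9 false among 183 calls. The number of arrays limits precision, and between 72.3% and 77.8% of spots were well above background. P-values measure the spread between mice.

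The members and lists were chosen with earlier results of these data known. Genes named are the members, list genes called at 5% (at most 20), otherwise the 2 largest changes in each direction of a list without a call, and the 3 genes most like Hamp, Mt1 and Trf. Mtf1 and Sod1 were named outside that rule, after their values were seen. Same-numbered arrays share a slide position, and once diet means were removed they correlated over probes at 0.1001, 0.2294, 0.1816 and 0.1763, so the number was used as a block in an alternative fit. Other alternatives were normexp (offset 50), median, quantile, spike-in and no scaling, the deposited values, no filter, detection on all 8 arrays, outlier spots kept, the methods' t-test with unequal variances, 1%, array weights, the mean of a gene's probes and each array left out.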

Additional observations from a re-analysis of the deposited data

Results flagged for a closer look

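Of 24 groups of 4 values (12 member probes on each diet), 1 held a value far from the others: the Hamp value of ATH replicate 1 was 6.41 (log2 scaled signal), 0.23 below the nearest of the other three, and this gap was 0.958 of the whole range of 0.24. Chance alone flags about 5% of such groups. The value lay within the STD range, from 6.37 to 6.84.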

How the results depend on the processing

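The iron and metallothionein calls depended on the scale. The count of called members was 1 (Ftl1). It was 2 with normexp and with array weights (Ftl1 and Mt2 in both). With no scaling it was also 2, but these were Slc40a1 and Mt2, and with spike-in scaling it was 1, Slc40a1. It was 0 with median scaling, quantile normalization, no detection filter, the methods' t-test, the replicate block and at 1%. Of the other 101 iron and metal genes 6 were called, and 14 with normexp, 3 with median scaling, 2 with quantile normalization, 13 with spike-in scaling, 26 with no scaling, 12 with array weights, 2 with the replicate block, and 0 with no filter, with the methods' t-test and at 1%. Over all probes 2483 were called, and 6394 with normexp, 7364 with no scaling, 1086 with no filter, 22 with the methods' t-test (0 at 1%), 1322 with the replicate block, 3896 with array weights and 164 at 1%. The diets did not overlap for 2 members, for 1 (Slc40a1) with spike-in scaling, for 1 (Ftl1) with median scaling, and for 2 others (Slc40a1 and Mt2) with none. Leaving out each array gave 394 to 3979 probes, 0 to 2 members and 0 to 11 other genes.

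Signs turned for Hamp with median (0.023), quantile (0.27), spike-in (0.26) and no scaling (0.40), for Bmp6 with spike-in (0.18) and no scaling (0.31), for Tfrc with no scaling (0.074), for Trf with quantile (0.27), spike-in (0.16) and no scaling (0.30), and for Fth1 with quantile (0.066) and no scaling (0.084). Leaving out each array moved Hamp from -0.14 to 0.016 and Bmp6 from -0.25 to 0.048. The Ftl1 call was lost without 6 of the 8 arrays in turn (adjusted p from 0.042 to 0.11, all at -0.64 to -0.48). The replicate block (adjusted p for Ftl1 = 0.066) changed no other member's call. The cause of these changes was not tested, beyond the shifts of the array percentiles given above. Going from percentile scaling to none raised every fold change by 0.45 on the log2 scale. The 4 arrays per diet, and a slide for each diet, limit what can be told.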
